A study of Mus musculus with 477 samples.

Results

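The genes described here serve protein folding and secretion in the endoplasmic reticulum (ER), and 44 of the 21004 genes in the count table were chosen by name for this role. They cover chaperones, sensors and transcription factors of the unfolded protein response, ER-associated degradation, entry into the ER and exit from it. The counts came from 477 single mouse mammary cells held one by one in the chambers of Fluidigm C1 chips, where full-length cDNA was made from each. The study set luminal cells from virgin glands and from glands at day 12.5 of pregnancy beside tumor cells, to follow heterogeneity and tumorigenesis under loss of *Brca1*.

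All mice were females of a mixed C57BL/6 and 129/Sv strain and carried MMTV-Cre, a Cre recombinase under a viral promoter active in mammary epithelium, so no group was free of Cre or of a floxed allele. Br mice were *MMTV-Cre; Brca1 fl/fl*, 53 mice were *MMTV-Cre; Trp53 fl/+*, and Br53 mice were *MMTV-Cre; Brca1 fl/fl; Trp53 fl/+*. Luminal mice were 3 to 4 months old. The paper states that tumors of Br mice form at a later age than this, and that the *Trp53* mutation speeds them. Ages of the single tumor mice are not given here, so tumor and age cannot be told apart. Mice of the luminal groups had also been crossed with the ROSA mT/mG reporter, which turns on a membrane GFP where Cre has acted, and their cells were sorted as CD24 high, CD29 low and GFP positive. Tumor cells were sorted as CD24 positive from tumors of about 1 cm. In group names, L and T mark luminal cells and tumors, and v and p mark virgin and pregnant mice. The 10 groups held 11 mice, with 2 in pBrL (pBrL-1 and pBrL-2) and 1 in each other group, so single groups had no replicate and mice were compared in larger arms.

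ER folding works in steps. Proteins with a signal peptide are led to the Sec61 channel by the signal recognition particle, lose the peptide to signal peptidase, and fold with the help of BiP (*Hspa5*), the lectin chaperones calnexin and calreticulin, and the protein disulfide isomerases. When folding falls behind, IRE1 (*Ern1*), PERK (*Eif2ak3*) and ATF6 start the unfolded protein response, whose factors XBP1, ATF4 and ATF6 raise chaperones, degradation genes and, under lasting stress, *Ddit3* (CHOP). Secretory mammary cells lean on this machinery to export milk proteins, and XBP1 is known for building the secretory apparatus of such cells.

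Depth was 40.3 to 116 M reads per mouse (M, 1e+06) and 170209 to 3550564 reads per cell. Levels are given as CPM, the reads of a gene scaled to a total of 1e+06 over the summed cells of a mouse. Summed markers of luminal epithelium (6 genes such as *Krt8* and *Epcam*) reached 7240 to 12783 CPM in the 7 luminal mice and 512 to 5617 CPM in the 4 tumors, with BrT1 lowest. BrT1 also carried 4955 CPM of 6 fibroblast markers, 4356 of them from *Dcn* and 466 from *Col1a2* with *Lum* at 0, and Br53T2 3610 CPM of 6 basal markers, while markers of plasma and B cells, themselves rich in ER genes, stayed at or under 2.31 CPM in every mouse, with 4 of 6 measured. *Brca1* counts of the whole gene, which can come from exons outside the floxed part and so do not check the deletion, were 1.7 to 57.2 CPM in the 9 *Brca1*-deficient mice and 5.21 and 6.99 CPM in the 53 mice.

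The promoters of these genes are shown first because the chaperone genes are the textbook targets of ATF6 and XBP1, which read the ER stress response element, CCAAT and CCACG 9 bases apart. RefSeq windows from 250 bases before to 50 bases after the annotated start (GRCm38.p6) were on hand for 36 of the 44 genes, and 8 of the 36 (22.2%) held an exact match on either strand, against 0.137% of 27025 genes with a window. The 8 were *Hspa5*, *Hsp90b1*, *Dnajc3*, *Calr*, *Canx*, *Pdia6*, *Derl3* and *Syvn1*. Since the 44 genes were chosen by name and hold such textbook targets, the higher share is a description and no test. Of 56 further ER genes with a window, 1 (*Creld2*) held a match. *Hyou1*, *Manf*, *Atf6*, *Creb3l1*, *Derl1*, *Sec61a1*, *Ssr2* and *Spcs3* had no window. The 4 windows below belong to genes that return in the account of single cells. They are written 5′ to 3′ on the strand of the gene, with the matching letters in capitals (CCAAT and CCACG, or CGTGG and ATTGG where the element lies on the other strand). A match is a description of letters and not a measured binding site.
*Hspa5*, chr2:34771840-34772139, plus strand: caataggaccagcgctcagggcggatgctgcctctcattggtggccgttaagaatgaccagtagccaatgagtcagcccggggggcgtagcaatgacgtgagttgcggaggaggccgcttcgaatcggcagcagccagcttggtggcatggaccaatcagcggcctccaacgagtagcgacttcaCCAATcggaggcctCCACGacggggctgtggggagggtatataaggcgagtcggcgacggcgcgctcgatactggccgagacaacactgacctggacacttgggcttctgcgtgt
*Hsp90b1*, chr10:86705395-86705694, minus strand: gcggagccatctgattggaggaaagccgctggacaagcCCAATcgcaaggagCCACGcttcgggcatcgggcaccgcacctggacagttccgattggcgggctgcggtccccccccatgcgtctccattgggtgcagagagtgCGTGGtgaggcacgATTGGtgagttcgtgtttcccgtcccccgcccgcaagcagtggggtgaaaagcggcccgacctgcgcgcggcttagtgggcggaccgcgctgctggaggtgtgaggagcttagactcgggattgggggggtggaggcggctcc
*Calr*, chr8:84846882-84847181, minus strand: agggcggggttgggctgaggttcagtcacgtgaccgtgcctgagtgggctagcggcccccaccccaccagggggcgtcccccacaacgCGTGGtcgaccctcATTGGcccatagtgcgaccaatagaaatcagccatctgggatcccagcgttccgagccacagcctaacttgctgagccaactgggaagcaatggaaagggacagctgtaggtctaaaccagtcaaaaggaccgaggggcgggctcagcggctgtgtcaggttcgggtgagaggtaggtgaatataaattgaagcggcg
*Pdia6*, chr12:17266339-17266638, plus strand: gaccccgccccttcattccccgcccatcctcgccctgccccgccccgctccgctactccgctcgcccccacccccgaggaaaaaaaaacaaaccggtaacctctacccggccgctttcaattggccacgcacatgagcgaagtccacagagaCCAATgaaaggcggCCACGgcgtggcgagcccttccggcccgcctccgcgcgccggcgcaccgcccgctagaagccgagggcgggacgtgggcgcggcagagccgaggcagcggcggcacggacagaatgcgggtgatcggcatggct
The element of *Hspa5* began 65 bases and that of *Pdia6* 98 bases before the annotated start. *Hsp90b1* held 2 elements, 1 on each strand.

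Of all reads, the 44 genes together made up 1.05% to 1.52% in the luminal mice and 1.18% to 1.67% in the tumors. With caseins left out of the total, their sums were 11614.5 to 16480 CPM in the luminal mice and 11818 to 16696 CPM in the tumors. Per kilobase of exon, *Canx* (calnexin) was the most abundant, with 489 ± 157 CPM per kb (SD, n = 7) in luminal mice and 474 ± 132 (n = 4) in tumors. *Hspa5* came next, with 284 ± 97.2 CPM per kb in luminal mice and 449 ± 144 in tumors. *Ssr2*, a subunit of the translocon-associated protein complex, held rank 3 in luminal mice at 199 ± 45 CPM per kb, close to *Atf4* at 196 ± 46.1 and *Pdia3* at 194 ± 55.2, and these 3 did not differ beyond their spread. *P4hb* (protein disulfide isomerase) held rank 3 in tumors at 407 ± 166 CPM per kb. At the other end, *Ern1* lay at 0.681 CPM per kb in luminal mice and 1.83 in tumors. A mean under 10 CPM over the mice was seen for 3 genes (*Derl3*, *Sec61g* and *Ern1*).

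**Figure D1:**
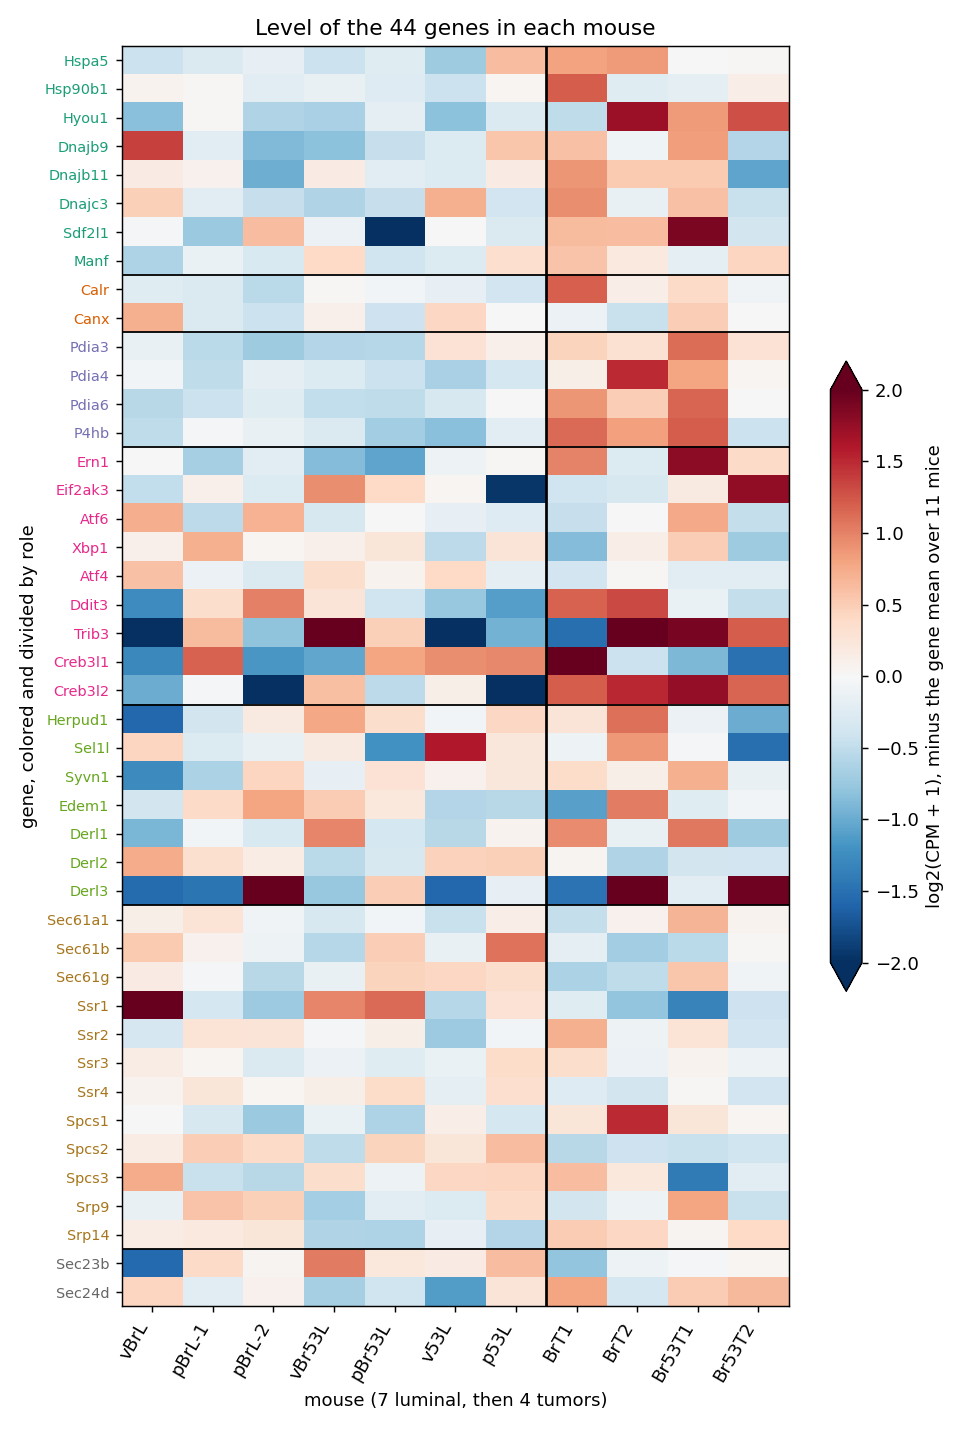
Level of each of the 44 genes (rows, divided by role) in each of the 11 mice (columns, luminal left of the black line), as log2(CPM + 1) minus the mean of the gene over the mice, with colors cut at ±2. The disulfide isomerases are redder in the tumors, *Ssr1* is high in vBrL, vBr53L and pBr53L, and *Trib3*, *Derl3*, *Creb3l1* and *Creb3l2* vary widely from mouse to mouse.

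To ask which genes differ once tumors have formed, the 4 tumors were set against the 5 luminal mice of the Br and Br53 genotypes. The 4 disulfide isomerases had log2 fold changes of 0.93 to 1.01 in tumors, *Hspa5* was higher in every tumor than in every *Brca1*-deficient luminal mouse, and *Creb3l2*, a membrane-bound transcription factor that promotes secretory capacity, had the highest log2 fold change of the 44 genes, 1.68. Entry genes were mixed, with values below 0 for *Ssr1*, *Ssr4* and *Spcs2*. None of these differences passed the threshold of the edgeR test. Of the 44 genes, 0 were called at an adjusted p under 0.05, against 0.609% of 12978 genes tested. At an unadjusted p under 0.05 there were 10 genes (22.7%, 7 higher and 3 lower), against 13.8% of all genes. DESeq2 called 3 (6.82%, *Pdia3*, *Pdia6* and *Ssr1*), near its 6.23% of all genes, and limma on the mean over cells called 3 (6.82%, *Creb3l2*, *Pdia4* and *Pdia6*), beside 4.43%. The median log2 fold change over the 44 genes was 0.27, beside 0.06 over all genes, and 29 of the 44 values (65.9%) were above 0, beside 52.6% of all genes. Without BrT2 the median of the 44 genes was 0.07. The tumor arm also had fewer luminal marker counts and, in BrT1 and Br53T2, fibroblast or basal marker counts, and their part in these values was not tested. Nor was the part of age, since tumors of Br mice form later than the age of the luminal mice.

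Among the BiP system, all 8 fold changes were above 0, with a median log2 value of 0.36, though that of *Dnajb9* (0.076) turned below 0 without any 1 of 6 mice, as low as -0.15 without Br53T1, and 1 gene had an unadjusted p under 0.05. *Hspa5* stood at 1007 CPM (vBrL), 1114 (pBrL-1), 1211 (pBrL-2), 1011 (vBr53L) and 1146 (pBr53L), a mean of 1098 ± 88.4 (SD, n = 5). The tumors had 2375 CPM (BrT1), 2473 (BrT2), 1356 (Br53T1) and 1385 (Br53T2). All 4 tumors exceeded all 5 luminal mice, and the Br tumors lay far above the Br53 tumors. The log2 fold change was 0.67 ± 0.31 (SE), with an adjusted p of 0.371, and it was 0.43 without BrT2. The 53 mice fell on either side, at 833 CPM in v53L and 2091 in p53L, so over all 7 luminal mice the arms overlapped.

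*Hyou1*, a large ER chaperone that releases nucleotide from BiP, was low everywhere. It read 8.99 CPM (vBrL), 17.1 (pBrL-1), 10.7 (pBrL-2), 10.4 (vBr53L) and 14.7 (pBr53L), and 11.6 (BrT1), 57.1 (BrT2), 31.2 (Br53T1) and 42.6 (Br53T2). Of the tumors, 3 lay above every luminal mouse and BrT1 among them, and the log2 fold change was 1.42 ± 0.56 (adjusted p = 0.284). *Sdf2l1*, a partner of BiP, had 8.09, 4.64, 13.4, 7.63 and 1.06 CPM in vBrL, pBrL-1, pBrL-2, vBr53L and pBr53L, and 13.5, 13.4, 33.4 and 6.25 CPM in BrT1, BrT2, Br53T1 and Br53T2. The arms overlapped (log2 fold change 1.13 ± 0.81, adjusted p = 0.583, and a log2 value of 0.58 without Br53T1). *Hsp90b1* (GRP94), named after its values were seen, was high in BrT1 alone, at 1533 CPM against 553 to 721 CPM in the 5 luminal mice and the other 3 tumors, and its log2 fold change of 0.31 turned to -0.11 without that tumor. Of the lectin chaperones, *Calr* was also highest in BrT1, at 1115 CPM against 464 to 631 in the other tumors, and its log2 fold change of 0.55 ± 0.31 was 0.25 without BrT1. *Canx* had a log2 fold change of -0.13 ± 0.35, which turned to 0.11 without vBrL.

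The disulfide isomerases form and reshuffle disulfide bonds in new proteins. Each of the 4 genes had an unadjusted p under 0.05. *Pdia6* read 268 CPM (vBrL), 292 (pBrL-1), 334 (pBrL-2), 282 (vBr53L) and 277 (pBr53L), and 729.8 (BrT1), 556 (BrT2), 889.5 (Br53T1) and 398 (Br53T2). The arms did not overlap, with Br53T2 nearest to the luminal mice, and the log2 fold change was 1.01 ± 0.28 (adjusted p = 0.141). Of the 53 mice, v53L read 317 CPM and p53L 397, level with Br53T2. *P4hb* read 467, 649.6, 598, 544 and 411 CPM in the luminal mice in the same order, and 1460.0, 1169, 1540.5 and 494 in the tumors. Br53T2 lay among the luminal mice and the other 3 tumors far above them (0.99 ± 0.35, adjusted p = 0.233). *Pdia3*, chosen for mention after its values were seen, rested at 444 to 660 CPM in the 5 luminal mice and 889 to 1590 CPM in the tumors (0.94 ± 0.28, adjusted p = 0.169), but the 53 mice read 889.9 CPM (v53L) and 786 (p53L), and since v53L was level with the lowest tumor (889.0 in Br53T2) the arms overlapped over all 7 luminal mice. Summed, the isomerases had 1481 ± 107 CPM (SD, n = 5) in the *Brca1*-deficient luminal mice and 3188 ± 972 CPM (n = 4) in tumors. Without BrT1, the tumor with fibroblast markers, the log2 fold changes were 0.96 for *Pdia6*, 1.0 for *Pdia3*, 1.1 for *Pdia4* and 0.90 for *P4hb*. Without BrT2 they were 1.0, 0.96, 0.44 and 0.92 in the same order, so the value of *Pdia4* (0.93 ± 0.36 with all mice) rested on BrT2, which read 479.5 CPM against 176 to 297 in the other tumors.

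Of the 44 genes, 6 (13.6%) were higher in all 4 tumors than in all 5 luminal mice, beside 5.01% of all genes, and 1 (2.27%) was lower, beside 2.51%. The 6 were *Hspa5*, *Pdia3*, *Pdia4*, *Pdia6*, *Creb3l2* and *Spcs1*, and the 1 was *Ssr4*. Caseins made up 3.48% to 12.7% of reads in the 5 luminal mice and at most 0.380% in tumors, which lowers the luminal CPM. With caseins left out of the total, the highest luminal mouse read 1340 CPM for *Hspa5* (pBrL-2) and 284 for *Spcs1* (vBrL). The lowest tumors read 1356 (Br53T1) and 282 (Br53T2) over all reads, and the count without caseins was not taken.

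**Figure D2:**
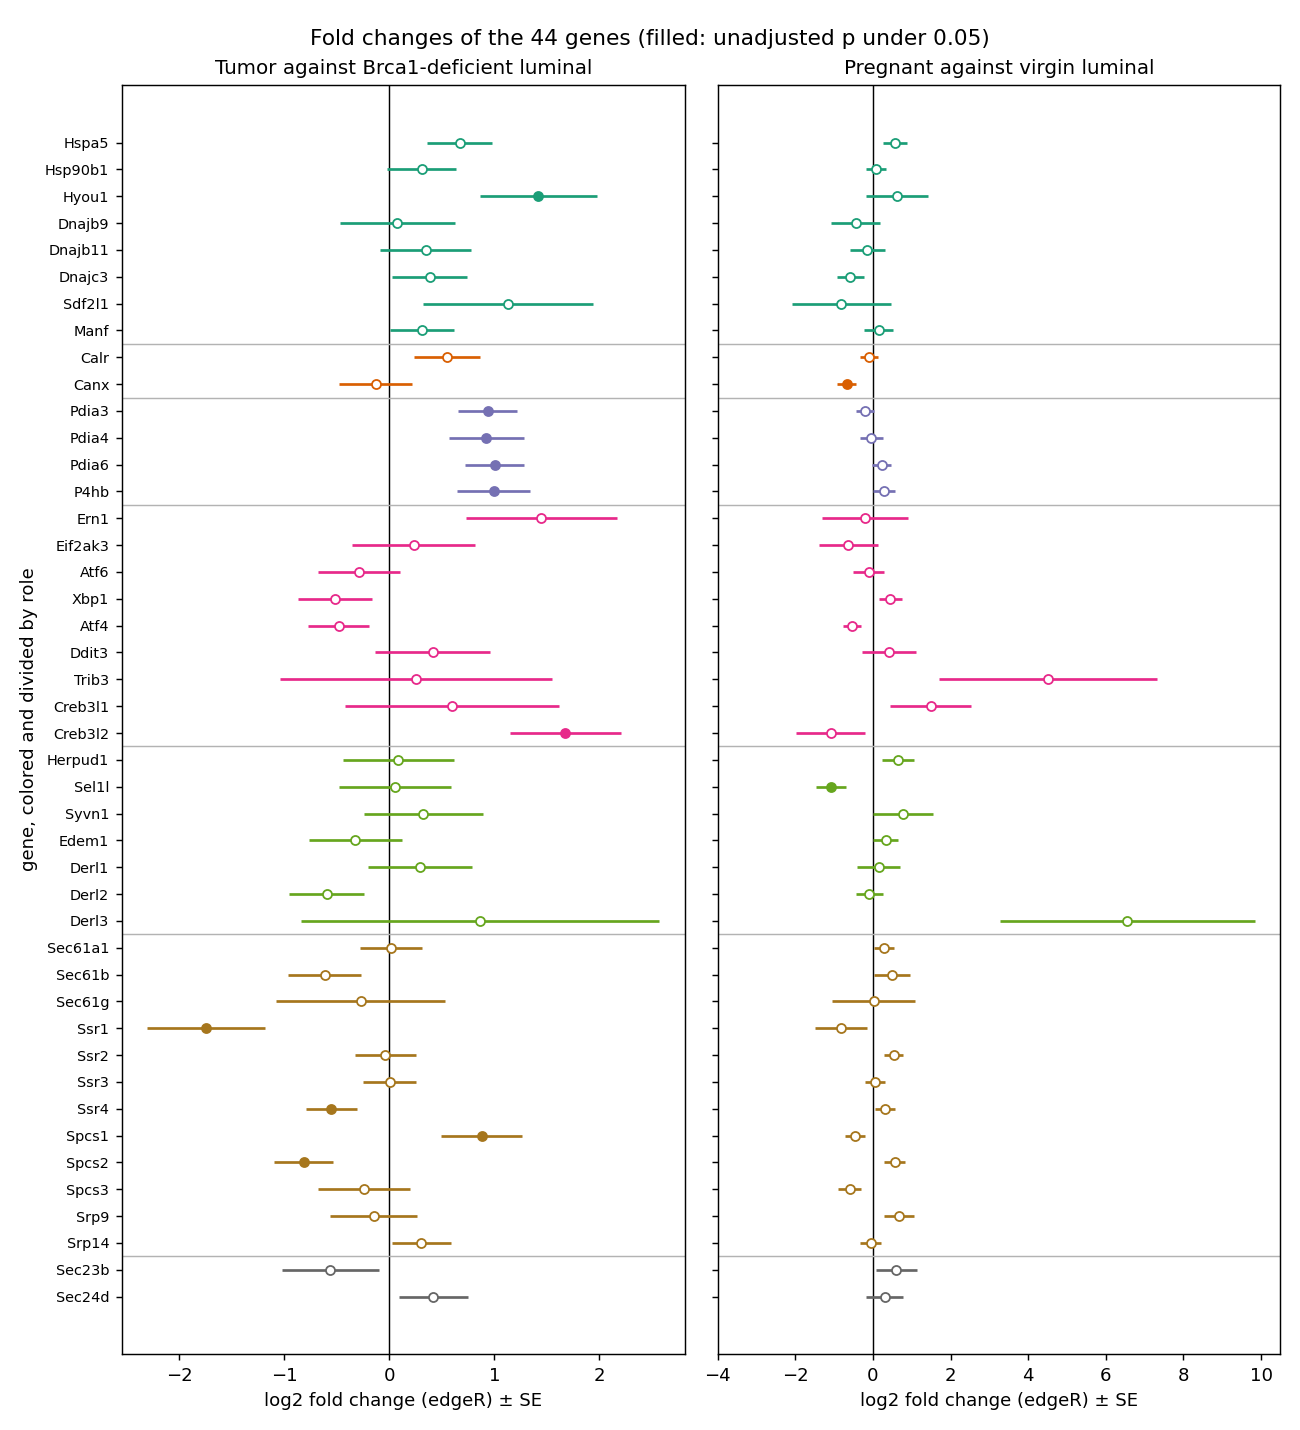
Log2 fold change from edgeR with its SE (horizontal axis) for each of the 44 genes (vertical axis, divided by role) in tumors against *Brca1*-deficient luminal mice (left) and in pregnant against virgin luminal mice (right, on a wider axis). Filled points had an unadjusted p under 0.05, 10 on the left and 2 on the right, and no gene passed after adjustment.

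Of the sensors and transcription factors, 6 of 9 had fold changes above 0 in tumors, with values from -0.52 to 1.68 on the log2 scale. *Creb3l2* read 20.4 CPM (vBrL), 40.6 (pBrL-1), 7.66 (pBrL-2), 63.7 (vBr53L) and 28.6 (pBr53L), and 97.4 (BrT1), 119.6 (BrT2), 144 (Br53T1) and 94.5 (Br53T2). All tumors lay above all luminal mice, the 53 mice included (45.1 CPM in v53L, 6.57 in p53L), and the log2 fold change was 1.68 ± 0.53 (adjusted p = 0.186, and 0.0168 to 0.541 over the alternatives). The share of cells with a *Creb3l2* read, after every cell had been thinned to 100000 reads, was 16.7% to 32.5% in the 7 luminal mice and 43.1% to 83.3% in the tumors. Before thinning it was 22.2% to 57.1% and 78.4% to 96.7%. The exact 95% binomial interval was 18.6% to 49.1% for the highest luminal mouse (v53L) and 29.4% to 57.8% for the lowest tumor (Br53T2), so these neighbours were within counting error.

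*Ern1*, the IRE1 sensor, read 7.44, 4.3, 6.2, 3.59 and 3.04 CPM in vBrL, pBrL-1, pBrL-2, vBr53L and pBr53L, and 15.8, 5.95, 28 and 10 CPM in BrT1, BrT2, Br53T1 and Br53T2. BrT2 lay among the luminal mice (log2 fold change 1.45 ± 0.72, adjusted p = 0.407, and a log2 value of 0.96 without Br53T1). *Xbp1*, its downstream factor, had a fold change below 0, though counts per gene do not measure how active the sensor is. It stood at 247, 377, 236, 245 and 272 CPM in the same luminal mice, at 159 and 275 in v53L and p53L, and at 125, 252, 322 and 140.2 in the tumors. BrT1 and Br53T2 were the lowest of the 11 mice and Br53T1 was above all luminal mice but pBrL-1 (log2 fold change -0.52 ± 0.35, adjusted p = 0.564, and -0.32 without BrT1).

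*Atf4*, the factor translated under PERK signalling, read 627, 382, 339, 533 and 439 CPM in vBrL, pBrL-1, pBrL-2, vBr53L and pBr53L, and 318, 421, 358 and 354 CPM in BrT1, BrT2, Br53T1 and Br53T2 (log2 fold change -0.48 ± 0.29, adjusted p = 0.504). Its target *Ddit3* read 16.1, 50.7, 80.6, 47.9 and 29.8 CPM in the luminal mice and 91.5, 101, 36.3 and 28.3 in the tumors (0.41 ± 0.55, adjusted p = 0.794, and 0.0086 without BrT2). Both genes overlapped between the arms. The annotation holds 2 loci named *Ddit3*, so its counts are uncertain. *Ddit3* was above 90 CPM in both Br tumors and under 40 in both Br53 tumors.

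The degradation genes had fold changes on both sides of 0 (5 of 7 above, median log2 value 0.09), and the 2 ER exit genes also differed in sign. *Derl2*, a channel component of ER-associated degradation, read 94.2, 70.2, 62.3, 38.1 and 44.5 CPM in the luminal mice and 58.3, 36.4, 43 and 42.5 in the tumors. *Sec23b*, an inner coat subunit of the vesicles that leave the ER, read 35.3, 138, 109.6, 219 and 122 CPM in the luminal mice and 60.9, 98.9, 104 and 109 in the tumors. Both overlapped, and their log2 fold changes were -0.60 ± 0.36 and -0.56 ± 0.46 (adjusted p = 0.503 and 0.642), that of *Sec23b* being -0.27 without vBr53L.

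The 12 genes of entry into the ER split, with 4 fold changes above 0 and a median log2 value of -0.19. *Ssr1*, a subunit of the translocon-associated protein complex, read 2343 CPM (vBrL), 441 (pBrL-1), 339 (pBrL-2), 1112 (vBr53L) and 1245 (pBr53L), against 478 (BrT1), 326 (BrT2), 223 (Br53T1) and 425 (Br53T2). The 3 high luminal mice were those of chips SC10 and SC7, and the other luminal mice, with 382 in v53L and 687 in p53L on chip SC9, were nearer to the tumors. The log2 fold change was -1.74 ± 0.56 (adjusted p = 0.195), and the part of the chip in it was not tested. *Ssr4*, of the same complex, read 265, 298, 261, 275 and 327 CPM in the luminal mice and 212, 196, 257 and 195 in the tumors, without overlap (-0.55 ± 0.24, adjusted p = 0.338). In v53L it read 222 CPM, inside the range of the tumors.

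*Spcs2*, a subunit of signal peptidase, read 227, 288, 268, 143 and 279 CPM in the luminal mice and stayed between 139 and 156 CPM in the tumors. Only vBr53L of the luminal mice fell within the range of the tumors (log2 fold change -0.82 ± 0.28, adjusted p = 0.22). *Sec61b*, a small subunit of the translocation channel, read 85.1, 62.4, 54.9, 39.4 and 83.3 CPM in the luminal mice and 51.9, 36, 40.3 and 60.1 in the tumors (-0.61 ± 0.35, adjusted p = 0.478). *Spcs1*, another signal peptidase subunit, had a fold change above 0 (0.88 ± 0.38, adjusted p = 0.338), with a single tumor, BrT2 at 768 CPM, far above the other 3 at 282 to 324, and a log2 fold change of 0.31 without BrT2. In v53L *Spcs1* read 300 CPM, above Br53T2 at 282, so over all 7 luminal mice the arms overlapped.

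On chip SC6, the only chip with both a tumor and luminal cells, the median log2 difference between Br53T2 and pBrL-2 was 0.14 over the 44 genes and 0.13 over all genes. *Creb3l2* differed by 3.46 there, *Hyou1* by 1.90, *Pdia3* by 1.0, *Pdia6* by 0.25 and *P4hb* by -0.28. This is 1 mouse against 1 mouse, with no test.

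From cell to cell the genes fell into widely and rarely detected ones. After thinning to 100000 reads, *Hspa5* had a read in 92.5% to 100% of the cells of each luminal mouse and in all cells of the 4 tumors, and *Canx* in 97.3% to 100% of the cells of all 11 mice. *Hyou1* had a read in 11.3% to 28.2% of the cells in luminal mice and in 31.4% to 56.8% in tumors, and *Derl3* in at most 13.2% of the cells of any mouse. The median cell of a luminal mouse held 694.5 to 944.5 CPM of *Hspa5* except in p53L, where it held 1719 CPM, and the median cell of a tumor held 1977 CPM (BrT1), 1931 (BrT2), 1065 (Br53T1) and 1013 (Br53T2). By its median cell, as by its sum, p53L lay nearer to the Br tumors than to the other luminal mice. *Xbp1* was more uneven, since in Br53T2 the median cell held 4.64 CPM and the upper quartile 95.2 CPM while the summed level was 140.2 CPM.

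**Figure D3:**
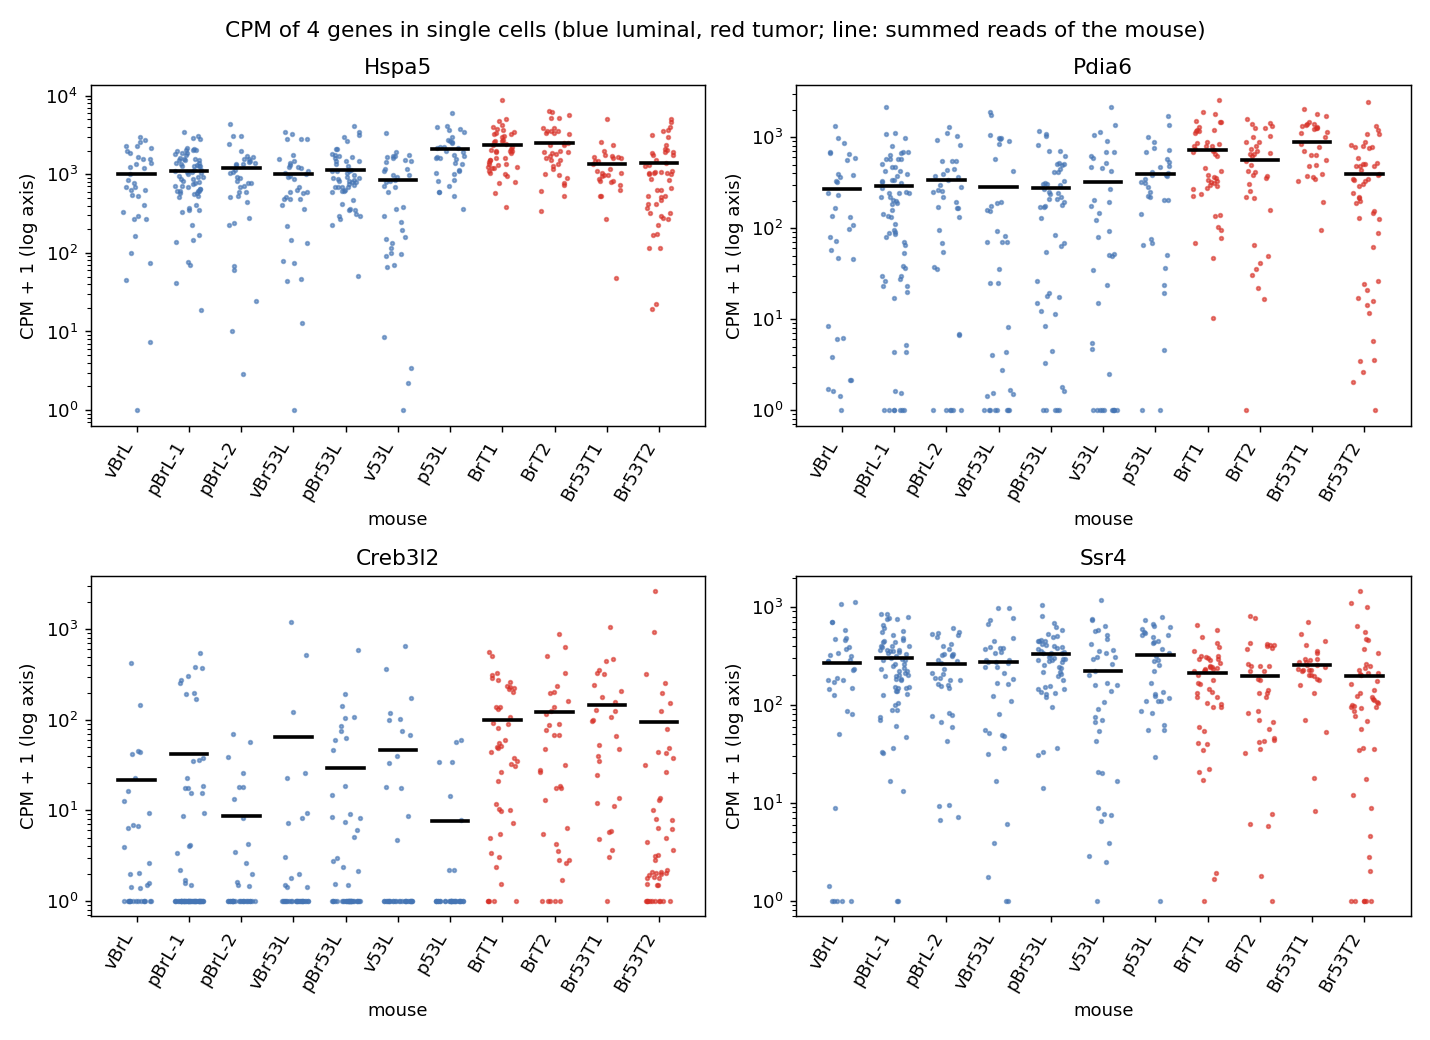
CPM + 1 of 4 genes (log vertical axis) in every cell of each of the 11 mice (horizontal axis), luminal cells in blue and tumor cells in red, with a black line at the value of the summed reads of the mouse. *Hspa5* fills nearly every cell and is highest in p53L, BrT1 and BrT2, *Creb3l2* is at 0 in most luminal cells, and *Ssr4* spans a similar range in all mice.

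The 4 pregnant luminal mice were compared with the 3 virgin ones, with genotype as a covariate, to ask what changes at mid-pregnancy, when casein reads had gone from 3.48% to 4.09% of the total in virgin mice to 9.61% to 17.4% in pregnant mice. Summed, the 44 genes had 13133 ± 1865 CPM (SD, n = 3) in virgin and 11704 ± 1339 CPM (n = 4) in pregnant mice. Caseins take up part of the total and lower every CPM of the pregnant mice, and with caseins left out of the total the sums were 13641 ± 1919 and 13509 ± 2081 CPM, a difference within the spread of the mice. In the fit their median log2 fold change was 0.12, equal to that of all genes (0.12). Of the 44 genes, 0 were called by edgeR, against 0.0159% of 12615 genes tested, and 2 (4.55%) had an unadjusted p under 0.05, beside 9.74% of all genes. Without overlap between the stages, 3 of the 44 genes (6.82%) were higher in pregnant mice (*Hspa5*, *Hyou1* and *Spcs2*), beside 6.32% of all genes, and 3 (6.82%) lower (*Canx*, *Atf4* and *Spcs1*), beside 5.58%. With caseins left out of the total, 7 (15.9%) were higher (*Xbp1*, *Ssr2*, *Ssr4* and *Srp9* besides the 3 named), beside 8.11% of all genes, and 1 (2.27%) was lower (*Atf4*), beside 4.2%. DESeq2 called 2 (4.55%, *Trib3* and *Derl3*), under its 7.67% of all genes, and limma on the mean over cells called 1 (2.27%, *Spcs2*), under 4.6%. Virgin mice also held more hormone-sensing marker counts (688 to 4607 CPM over 4 genes) than pregnant mice (211 to 283 CPM), most of them from *Prlr* (525 to 3713 against 162 to 221 CPM). Of 6 fibroblast markers, *Dcn* alone was high in virgin mice (176 to 711 CPM, against 0.026 to 25.4 in pregnant mice), with the other 5 at no more than 0.61 CPM in any virgin mouse. The part of these in the comparison was not tested.

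Of the chaperones, *Hspa5* read 1007, 1011 and 833 CPM in vBrL, vBr53L and v53L, and 1114, 1211, 1146 and 2091 CPM in pBrL-1, pBrL-2, pBr53L and p53L. The ranges did not overlap, but 3 of the 4 pregnant mice lay just above the virgin ones and p53L far above (log2 fold change 0.57 ± 0.30, adjusted p = 0.605, and a log2 value of 0.21 without p53L or without v53L). *Canx* read 3605, 2341 and 2910.3 CPM in the virgin mice and 1784, 1620.4, 1636 and 2184 CPM in the pregnant mice, without overlap (-0.67 ± 0.25, adjusted p = 0.475, and -0.41 without vBrL). With caseins left out of the total the stages overlapped, since p53L then read 2643 CPM and vBr53L 2426. On chips SC7 and SC9, each with 1 mouse of each stage, the *Canx* difference was -0.52 and -0.41, and -0.37 and -0.20 with caseins left out.

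In ER-associated degradation, *Sel1l*, the adaptor of the HRD1 ubiquitin ligase, read 57.1, 48 and 130.3 CPM in vBrL, vBr53L and v53L and 34.7, 38.1, 17.8 and 49.4 CPM in the pregnant mice in the order given above. Only p53L overlapped the virgin mice (-1.07 ± 0.38, adjusted p = 0.461), and the difference was -1.38 on both shared chips. *Syvn1*, which encodes HRD1 itself, read 5.9, 13.9 and 16.8 CPM in the virgin mice and 9.79, 21.6, 19.4 and 18.6 in the pregnant mice (0.78 ± 0.77, adjusted p = 0.798, and 0.36 without vBrL). *Herpud1*, an HRD1 partner, read 65.1, 334 and 188 CPM in the virgin mice and 152, 220.4, 248 and 261 CPM in the pregnant mice, all within the virgin range (0.63 ± 0.41, adjusted p = 0.695). This value rested on vBrL, the lowest mouse, and was 0.074 without it.

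The factors of the unfolded protein response were no more uniform. *Atf4* lay below the virgin range in all pregnant mice (627, 533 and 547 CPM in virgin, 382, 339, 439 and 365 in pregnant, log2 fold change -0.54 ± 0.24, adjusted p = 0.54). *Xbp1* overlapped between stages in CPM over all genes (log2 fold change 0.45 ± 0.30, adjusted p = 0.699, and 0.26 without p53L or without v53L). *Ddit3* overlapped as well (0.41 ± 0.69, adjusted p = 0.898), and its log2 fold change turned to -0.47 without vBrL and to -0.45 with chip as the covariate. *Trib3*, a pseudokinase induced by ATF4 and CHOP, read 0.0433, 59.6 and 0.0992 CPM in the virgin mice and 12.3, 3.89, 10.9 and 3.43 in the pregnant mice. The virgin mice lay at both extremes, and the fitted log2 fold change of 4.51 ± 2.8 (adjusted p = 0.675) was 1.18 without vBrL and turned to -1.35 without the genotype covariate.

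*Creb3l1*, like *Creb3l2* a membrane-bound factor, read 3.38, 4.23 and 19.5 CPM in vBrL, vBr53L and v53L and 23.2, 3.78, 17.5 and 19.9 CPM in pBrL-1, pBrL-2, pBr53L and p53L, with pBrL-2 far below the other pregnant mice (log2 fold change 1.48 ± 1.04, adjusted p = 0.725, and 0.74 without pBrL-1). *Creb3l2* read 20.4, 63.7 and 45.1 CPM in the virgin mice and 40.6, 7.66, 28.6 and 6.57 in the pregnant mice (-1.09 ± 0.89, adjusted p = 0.759, -0.35 without p53L or without v53L, and -1.91 without vBrL). *Eif2ak3*, the PERK sensor, read 14.4, 40.3 and 21.1 CPM in the virgin mice and 22.1, 16.8, 27.4 and 4.63 in the pregnant mice (-0.63 ± 0.76, adjusted p = 0.838, and 0.017 without v53L). All 3 genes overlapped between stages.

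Of the entry genes, *Srp9*, a subunit of the signal recognition particle, read 40.9, 28.2 and 37.7 CPM in virgin and 68.7, 64, 39.5 and 59.8 CPM in pregnant mice. Only pBr53L fell within the virgin range (0.67 ± 0.38, adjusted p = 0.637). *Ssr1* again split by chip, with a log2 fold change of -0.82 ± 0.66 (adjusted p = 0.755) that turned to 0.58 with chip as the covariate. Within chips, the median difference over the 44 genes was -0.05 on SC7 and 0.35 on SC9, beside 0.02 and 0 over all genes, and 26 of the 44 genes had the same sign on both.

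Between the Br53 and Br tumors (2 against 2), edgeR called 0 of the 44 genes and 0% of 13477 genes, with 1 of the 44 (2.27%) and 537 of all (3.98%) at an unadjusted p under 0.05. DESeq2 called 315 genes (2.34%) and limma 0, none of them among the 44. The gene at an unadjusted p under 0.05 was *Ddit3*, at 36.3 and 28.3 CPM against 91.5 and 101 CPM (log2 fold change -1.65 ± 0.67, adjusted p = 1.0). Between the 5 *Brca1*-deficient and the 2 *Trp53* mutant luminal mice, with stage as a covariate, edgeR called 0 of the 44 and 0% of 13709 genes, with 2 (4.55%) and 818 (5.97%) at an unadjusted p under 0.05. DESeq2 called 514 genes (3.75%) and limma 0, again none among the 44. The 2 genes were *Pdia3* (-0.85 ± 0.25) and *Sel1l* (-1.18 ± 0.42), both with an adjusted p of 0.778. Genotype and chip cannot be told apart in this comparison.

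Of the wider ER set of 68 measured genes, 0 were called by edgeR in any of the 4 comparisons. At an unadjusted p under 0.05 there were 11 (16.2%) in tumors against luminal mice (6 higher, 5 lower), near the 13.8% of all genes, and 11 (16.2%) in pregnant against virgin mice (8 higher, 3 lower), beside 9.74%. There was 1 (1.47%) between the tumor genotypes, beside 3.98%, and there were 4 (5.88%) between the luminal genotypes, beside 5.97%. The smallest p in both of the first comparisons was that of *Fkbp11*, an ER prolyl isomerase of secretory cells. *Fkbp11* read 59.4, 63.3 and 54.5 CPM in vBrL, vBr53L and v53L, 185, 170.2, 171 and 211 CPM in pBrL-1, pBrL-2, pBr53L and p53L, and 36.1 to 53.3 CPM in the tumors. The pregnant mice stood apart from the virgin mice and the tumors (log2 fold change 1.69 ± 0.29 for pregnancy, adjusted p = 0.175, and -1.62 ± 0.43 for tumors, adjusted p = 0.119). The next in tumors were *Txndc5* (1.19) and *Srp72* (-0.81), and in pregnancy *Sec24b* (2.24) and *Sec62* (-0.87). Between the tumor genotypes the 3 with the smallest p were *Dnajc10* (-1.99), *Creld2* (-1.78) and *Sar1b* (1.42), and between the luminal genotypes *Sec31a* (-1.0), *Lman1* (0.94) and *Sec16a* (-1.15).

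Cells of 1 mouse differed widely in their casein share, from 0.000901% to 15.5% in vBrL and from 1.17% to 33.4% in p53L. Within each luminal mouse, the CPM of each gene (with caseins left out of the total) was ranked against the casein share of the cell. The cells of a mouse share 1 library preparation and chip, and deeper cells had larger casein shares (Spearman rho of 0.114 to 0.524 between the share and the reads of a cell), so these correlations are descriptions over 35 to 71 cells. The summed CPM of the 44 genes had rho of both signs with the casein share, positive in 4 of 7 mice, at -0.0686 (vBrL), 0.320 (vBr53L) and -0.0629 (v53L) in virgin mice and 0.168 (pBrL-1), 0.406 (pBrL-2), -0.180 (pBr53L) and 0.239 (p53L) in pregnant mice.

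Gene by gene the correlations were mostly small. A positive rho in all 7 mice was found for 2 of 43 genes (4.65%), a share near the 2.97% of 10070 genes, and a negative rho in all 7 for 0 of 43. *Derl3* had no read in v53L and was left out. The median of the mean rho was 0.05 over the 43 genes and 0.0005 over all genes, and 34 of the 43 (79.1%) had a mean above 0, beside 50.3% of all genes. Single mice moved these values, since the median was 0.0197 with 26 genes above 0 without pBrL-2, 0.0311 with 27 without pBrL-1 and 0.0815 with 34 without vBrL. *Ssr4* had the highest mean, with rho of 0.384 (vBrL), 0.301 (vBr53L) and 0.339 (v53L) in virgin mice and 0.426 (pBrL-1), 0.311 (pBrL-2), 0.509 (pBr53L) and 0.380 (p53L) in pregnant mice, a mean of 0.379 ± 0.0725 (SD, n = 7) at percentile 99.6 of all genes. The values were close together in virgin and pregnant mice alike. Adjusting for the number of detected genes left a mean of 0.355, and thinning to 100000 reads 0.354. The casein share also went with markers of cell type. Mean rho was 0.430 for *Elf5*, positive in 7 of 7 mice, and -0.109 for *Krt8* and -0.210 for *Krt18*. For the hormone-sensing markers it was -0.297 (*Areg*, positive in 0 of 7), -0.272 (*Pgr*), -0.163 (*Esr1*) and -0.0498 (*Prlr*). The part of cell type in the correlations of the ER genes was not tested.

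*P4hb* was the other gene positive in 7 of 7 mice, with a mean rho of 0.226 ± 0.141 and a range from 0.116 in pBr53L to 0.502 in pBrL-2. *Xbp1* had a mean of 0.21 ± 0.159, positive in 6 of 7 mice and highest in pBrL-1 at 0.428 and pBr53L at 0.379, with -0.00477 in vBrL. *Ssr1* had a mean of 0.209 ± 0.209, with 0.475 in v53L and -0.0686 in pBr53L. At the low end, *Srp14*, an Alu-binding subunit of the signal recognition particle, had a mean of -0.147 ± 0.227, from 0.0878 in pBrL-1 to -0.551 in v53L. *Sel1l* (-0.114 ± 0.147), *Hyou1* (-0.103 ± 0.219) and *Canx* (-0.0672 ± 0.13) followed, and each had a positive value in at least 1 mouse. *Hspa5* itself had a mean of 0.0923 ± 0.177, and from -0.211 in pBr53L to 0.286 in vBr53L. In the wider ER set *Fkbp11* (mean 0.483) and *Sec11c* (0.288), a catalytic subunit of signal peptidase, were positive in 7 of 7 mice.

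**Figure D4:**
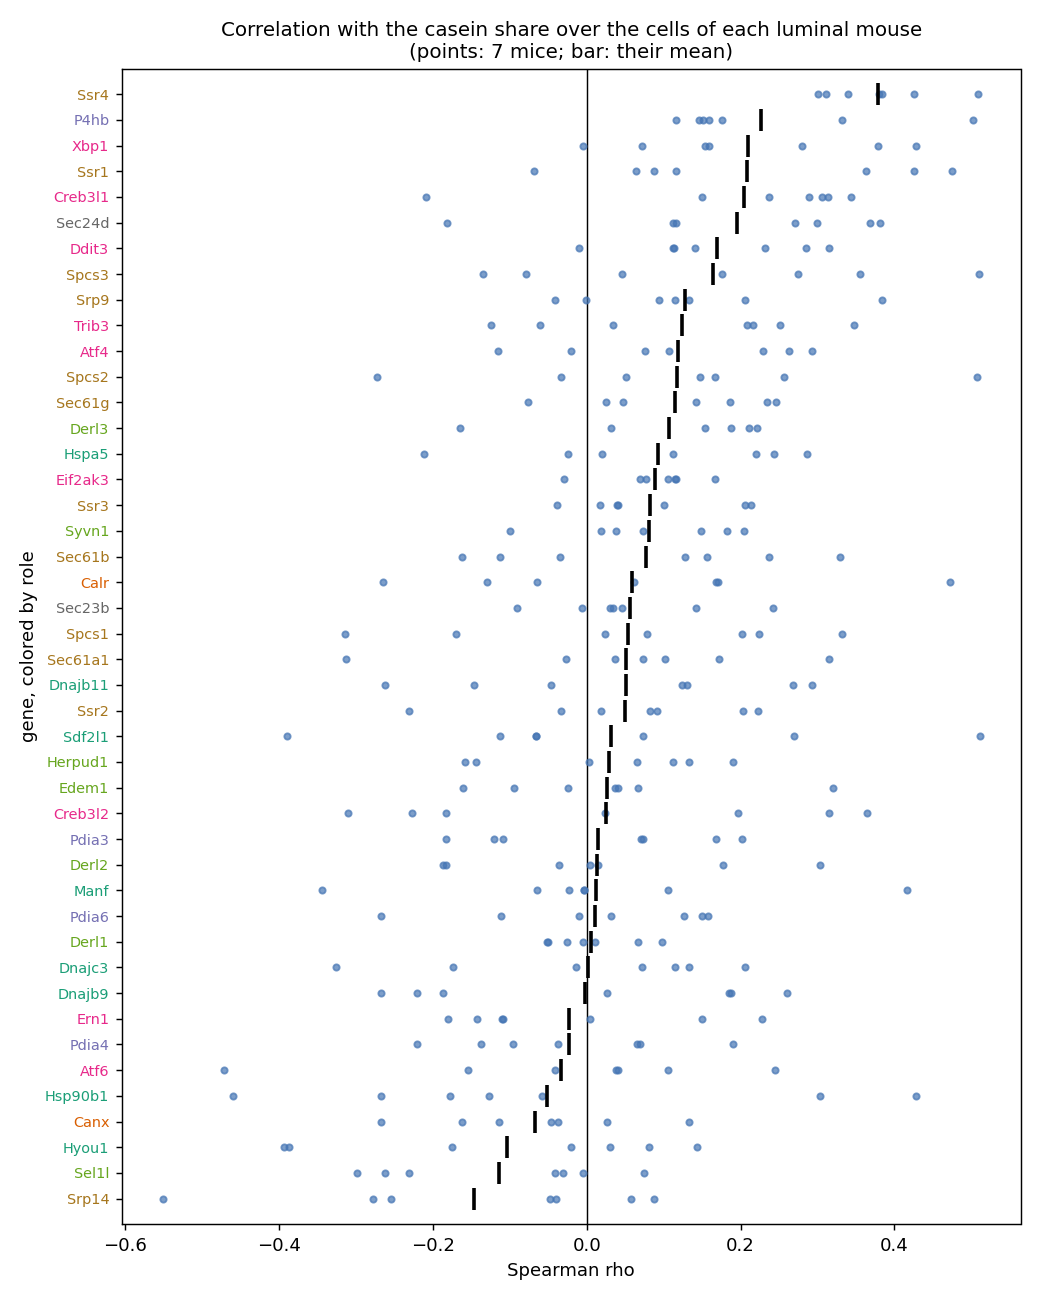
Spearman rho (horizontal axis) between the casein share and the CPM of each gene over the cells of a mouse, for the 44 genes (vertical axis, sorted by the mean), with 1 blue point per luminal mouse and a black bar at the mean of the mice. *Ssr4* stands apart at the top, with all its points between 0.301 and 0.509, while most genes scatter on both sides of 0.

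The same measure was taken against *Hspa5* in all 11 mice, to ask which genes vary with BiP from cell to cell. Mean correlations were weak, the highest at 0.253, over 30 to 71 cells of 1 mouse that share a chip, and single mice ranged from -0.493 (*Edem1* in BrT2) to 0.528 (*Spcs1* in pBrL-2) among the 43 genes. The order was led by other ER chaperones nonetheless. Of 9530 genes ranked by mean rho, *Manf*, a BiP cofactor, held rank 1 at 0.253 ± 0.119 (SD, n = 11), *Pdia6* rank 2 at 0.240 ± 0.144, *Pdia3* rank 3 at 0.227 ± 0.139, *Hsp90b1* rank 4 at 0.212 ± 0.15 and *Calr* rank 5 at 0.195 ± 0.17. *Hyou1* held rank 8 and *Pdia4* rank 19. Ranks 6 and 7 fell to *Creld2* and *Ddost* of the wider ER set. In all, 7 of the 42 genes with a value in every mouse (*Derl3* had none in v53L) were among the first 20 and 15 among the first 100.

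*Manf*, *Hsp90b1* and *Sec61a1* had a positive rho in all 11 mice, so 3 of 42 genes (7.14%) beside 0.115% of 9530. *Manf* ran from 0.0967 in p53L to 0.425 in BrT1. The values of *Pdia6* were larger in luminal mice (mean 0.297) than in tumors (0.141), and those of *Calr* larger in tumors (0.286) than in luminal mice (0.142), with overlapping points. By role, the median of the mean rho was 0.194 for the disulfide isomerases, 0.169 for the lectin chaperones, 0.136 for the 7 other genes of the BiP system, 0.0833 for entry genes, 0.0212 for exit genes, 0.0206 for sensors and factors and 0.0153 for degradation genes. *Atf4* (0.0206), *Ern1* (0.000991) and *Sel1l* (-0.0308) were near 0, and *Derl2* was lowest at -0.0516. The 7 genes with an element other than *Hspa5* had mean rho with *Hspa5* from 0.00824 (*Syvn1*) to 0.24 (*Pdia6*), with a median of 0.143, and the 28 genes whose window held none ran from -0.0516 to 0.227, with a median of 0.0795. The ranges overlap widely, and the 4 printed windows were picked from genes high in this order. Of the other genes with an element, *Canx* held rank 42, *Dnajc3* rank 70 and *Syvn1* rank 5061. For the casein share the medians stood the other way, at 0.0109 with an element and 0.0669 without. *Pdia3*, at rank 3, had a window and no match in it.

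**Figure D5:**
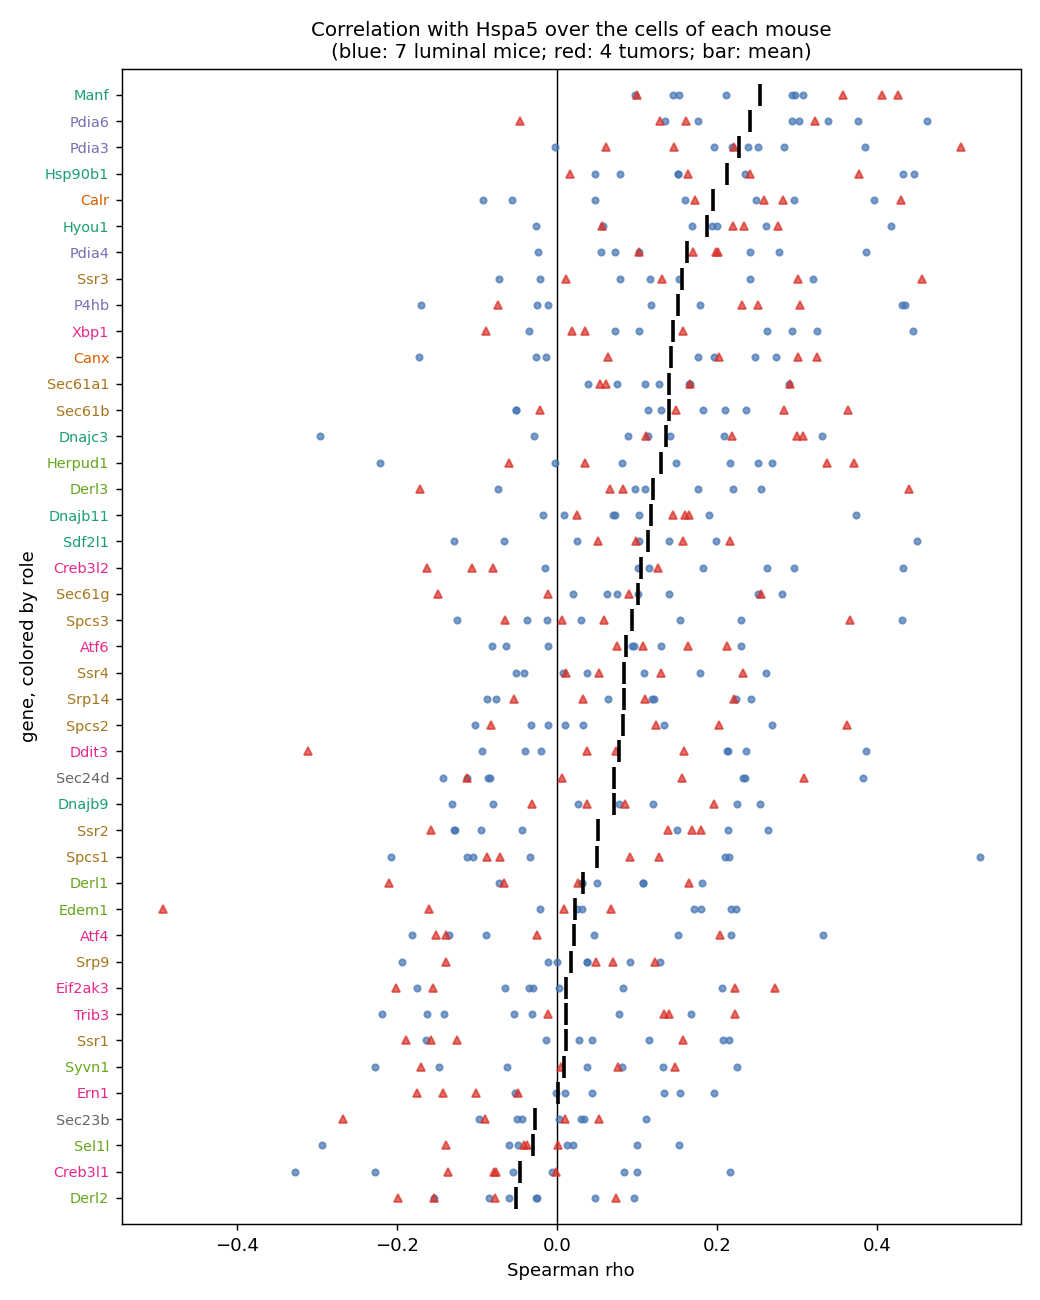
Spearman rho (horizontal axis) between *Hspa5* and each of the other 43 genes (vertical axis, sorted by the mean) over the cells of a mouse, with blue points for the 7 luminal mice, red triangles for the 4 tumors and a black bar at the mean. The first 7 genes, from *Manf* at 0.253 to *Pdia4* at 0.162, are chaperones, BiP partners and disulfide isomerases, and below them the roles are mixed.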

How the data were processed

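Cells sorted as luminal or tumor cells were captured on C1 chips (Fluidigm), with cDNA from the SMARTer kit and libraries from Nextera XT. The authors filtered reads with sickle, trimmed them with Trim Galore 0.4.1, aligned them to mm10 with STAR 2.5.3a and counted reads per gene with Subread 1.5.3, per the labels and the methods. The deposited table gives counts of reads, not normalized, for each gene in each cell. No molecular identifiers were used, and PCR copies therefore count as separate reads. The annotation, the use of strand and the handling of reads that match several places were not given in the sources used here, so genes with near-identical copies elsewhere, such as *Sec61g*, *Srp9* and *Srp14*, are uncertain. No 2 cells had identical values, and the authors inspected capture sites for doublets under a microscope.

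The mouse was the replicate. Each mouse was a separate animal by its label, and 5 of the 8 chips held 1 mouse each. For each mouse the counts of its cells were added up and fitted over all genes with edgeR 4.0.16 (TMM, filterByExpr, quasi-likelihood test) in R 4.3.3, and p-values were adjusted by Benjamini-Hochberg over all genes tested. All 44 genes passed the filter in each comparison. Tumors and *Brca1*-deficient luminal mice were fitted without covariates, pregnancy with genotype and luminal genotype with stage. CPM are summed counts scaled to 1e+06, and within-chip differences are of log2(CPM + 1). Per kilobase values used the union of exons in GENCODE vM21 (GRCm38). Cells were thinned to 100000 reads for shares of cells, with exact 95% intervals that cover counting error only. Correlations are Spearman's, computed with scipy 1.17.1 within each mouse. The steps were tested on simulated data.

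Named genes were those called, the 5 highest and 5 lowest fold changes in the tumor and pregnancy comparisons (among genes reaching a mean of 10 CPM in 1 arm), the 3 most abundant per kilobase in luminal mice or tumors, the 4 highest and 4 lowest casein correlations, and *Hspa5*, *Xbp1*, *Atf4* and *Ddit3*, which gave 26 genes. Others are given by counts and ranges, except *Hsp90b1*, *Dnajb9*, *Calr*, *Pdia3*, *Pdia4* and *Spcs1*, which were chosen for mention after their values were seen, and the genes of the *Hspa5* correlation. The members, the wider ER list, the marker lists and these rules were chosen with earlier results of these data known. The correlation with *Hspa5* was added after the data had been seen. Alternatives were RLE factors, library size alone, caseins left out, no filter, DESeq2 1.42.0, the mean over cells with limma 3.58.1, cells with at least 2000 genes, other arms and covariates, and leaving out each mouse.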

Additional observations from a re-analysis of the deposited data

Results flagged for a closer look

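For each of the 44 genes, the highest and lowest mouse were compared with the rest of the 5 *Brca1*-deficient luminal mice, the 4 tumors and the 4 pregnant mice, on the log2 scale, by the gap to the nearest mouse as a share of the range (Dixon's ratio). Of 132 such groups, 3 passed the 95% critical value, and chance flags about 1 in 20 groups, or 6.6 of 132. *Spcs1* stood apart in the tumor BrT2, at 768 CPM against 282 to 324 CPM in the other tumors (ratio 0.859). *Hspa5* stood apart in p53L, at 2091 CPM against 1114 to 1211 CPM in the other pregnant mice (ratio 0.868). *Creb3l1* stood apart in pBrL-2, at 3.78 CPM against 17.5 to 23.2 CPM in the other pregnant mice (ratio 0.832).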

How the results depend on the processing

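The count of called genes among the 44 was 0 by edgeR in all 4 comparisons under every normalization, filter, arm and covariate tried and without each mouse. DESeq2 called 3 and limma on the mean over cells 3 for tumors (6.23% and 4.43% of all genes), and 2 and 1 for pregnancy (7.67% and 4.6%). The median log2 fold change for tumors ranged from 0.07 to 0.35 without each mouse, lowest without BrT2, and that for pregnancy from -0.05 to 0.18, below 0 without v53L or p53L. Scaling by library size alone moved the tumor median of all genes from 0.06 to 0.20 and that of the 44 genes from 0.27 to 0.42. For casein, 2 to 5 genes were positive in all mice when each mouse was left out, beside 3.38% to 4.62% of all genes. There were 5 without vBrL, beside 4.06% of all genes, and 4 without v53L, beside 4.61%. For *Hspa5*, the count was 2 when adjusted for the number of detected genes, beside 0.0735% of all genes, and 5 after thinning, beside 0.225%. It was 3 to 5 without each mouse, beside 0.176% to 0.325%, with 5 without v53L, beside 0.192%. With caseins left out of the total, an alternative chosen after seeing the data, the genes without overlap between stages went from 3 to 7 (higher) and from 3 to 1 (lower). Of the 44 genes, 13 turned sign for tumors and 17 for pregnancy without at least 1 mouse. Among those described, *Hsp90b1* turned for tumors without BrT1 (-0.1066 to 0.455 without each mouse), and *Dnajb9* turned too (-0.1535 to 0.7267 without each mouse). *Canx* turned without vBrL (-0.3137 to 0.1141 without each mouse), by library size alone (0.025) and against pregnant mice only (0.25). Under limma *Derl2* (0.0395) and *Sec23b* (0.58) turned. The limma median of all genes was 0.23 for tumors and 0.18 for pregnancy, with 69.3% and 70.5% of genes above 0. For pregnancy *Eif2ak3* turned under limma (0.40) and without v53L or p53L (-1.32 to 0.0183 without each mouse), *Ssr1* without vBrL (-1.52 to 0.56 without each mouse) and with chip (0.58), *Ddit3* without vBrL (-0.4736 to 0.9911 without each mouse) and with chip (-0.45), and *Trib3* without the genotype covariate (-1.35). The cause was not tested. No analysis paired by replicate was possible because the groups share no replicate numbers given by the labels. Chip could be used as a block for pregnancy on SC7 and SC9 only, where edgeR called 0 of the 44 genes. The SE of a log2 fold change ran from 0.24 (*Ssr4*) to 1.71 (*Derl3*) for tumors and from 0.23 (*Calr*) to 3.28 (*Derl3*) for pregnancy, which sets the size of difference that these mice can show, and low genes such as *Trib3* and *Derl3* rest on few cells.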
